A study of Drosophila melanogaster with 12 samples.

Results

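The intestines described here came from adult *Drosophila* in which the mitochondrial pyruvate carrier was knocked down in enterocytes, the absorptive cells of the midgut. Expression was compared between *myo1A > dMPC1-RNAi* animals (knockdown) and *myo1A > mCherry-RNAi* animals (control), across every gene of the deposited table. These are 5 of the 12 samples of the series, of which 8 had values here: knockdown replicates 1, 2 and 3 and control replicates 1 and 3. The labels number another control, replicate 2, which has no part here. The study asked which signals enterocytes send when mitochondrial pyruvate metabolism is reduced.

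Both groups carried the *myo1A-GAL4* driver, which is active in enterocytes, and *Tub-GAL80ts*, a temperature-sensitive repressor that holds RNAi back until adulthood. The strain is given as w1118 for both, and RNAi was on for 7 days in animals 4 to 5 days old when it began. mCherry is a fluorescent protein that flies do not encode, so its RNAi serves as a control for the RNAi machinery. RNA was taken from whole dissected intestines, so each value is a mixture of enterocytes, progenitors, enteroendocrine cells and muscle, while the knockdown was directed at enterocytes. In such a mixture, fewer cells of a type and less RNA per cell cannot be told apart.

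The carrier moves pyruvate, the end product of glycolysis, across the inner mitochondrial membrane, where it can feed the TCA cycle. In flies Mpc1 is one of its subunits. Enterocytes secrete digestive enzymes, take up sugars, amino acids and lipids, and lie behind the peritrophic matrix, a chitin and mucin sleeve that separates them from food and microbes. They also sense damage and infection, and their loss or stress is known to prompt division of the intestinal stem cells.

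Between 12838791 and 14938336 reads per library fell in genes. Values are normalized counts, that is, reads divided by a size factor per library. A gene was tested when its mean over the 5 libraries was at least 10, and called when its adjusted p was at most 0.01 and its log2 change at least 0.6 in size. Of 8921 genes tested, 627 were called higher in the knockdown (7.03%) and 599 lower (6.71%). These shares are the background for the counts of each gene list below. Knockdown replicate 1 stood apart from knockdown replicates 2 and 3 on the second principal component, which held 17.9% of the variance against 72.1% for the first, the one that separated the groups. Leaving out each library in turn changed the counts by more than 1.5 times in most cases. They were 128 higher (1.43%) and 59 lower (0.661%) without mCherry-RNAi replicate 1, and 202 (2.27%) and 105 (1.18%) without mCherry-RNAi replicate 3. They were 895 (10.1%) and 1040 (11.7%) without dMPC1-RNAi replicate 1, 261 (2.93%) and 288 (3.23%) without dMPC1-RNAi replicate 2, and 336 (3.77%) and 358 (4.02%) without dMPC1-RNAi replicate 3. Without 1 control, a single control library is left and is assumed to vary like the knockdown libraries. In all 5 of these fits 176 genes were called the same way, 118 higher and 58 lower, and genes described as keeping their call belong to these. Dividing instead by each library's total of reads in genes (total-read scaling) moved the median of all genes from -0.01 to 0.34 on the log2 scale and gave 1724 calls higher (19.3%) and 272 lower (3.05%), so that 86.4% of calls were higher, against 51.1%. All 1226 called genes had the same sign under both scalings. Of the genes named below, AcCoAS, CG10924, CG13907, CG16771, CG3523, CG9465, Cg25C, GATAe, Gclm, Gpdh, MTF-1, Mal-B1, RpLP0, RpS29, S6k, Vha16-1, iotaTry, kdn, l(1)G0156 and slif lost their calls with total-read scaling. With quantile scaling Bace, CG12374, CG34220, CG3523, CG9465, GATAe, Gclm, MtnA, RpLP0, RpS29, S6k, Vha16-1, kdn, l(1)G0156 and slif lost theirs.

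**Figure D1:**
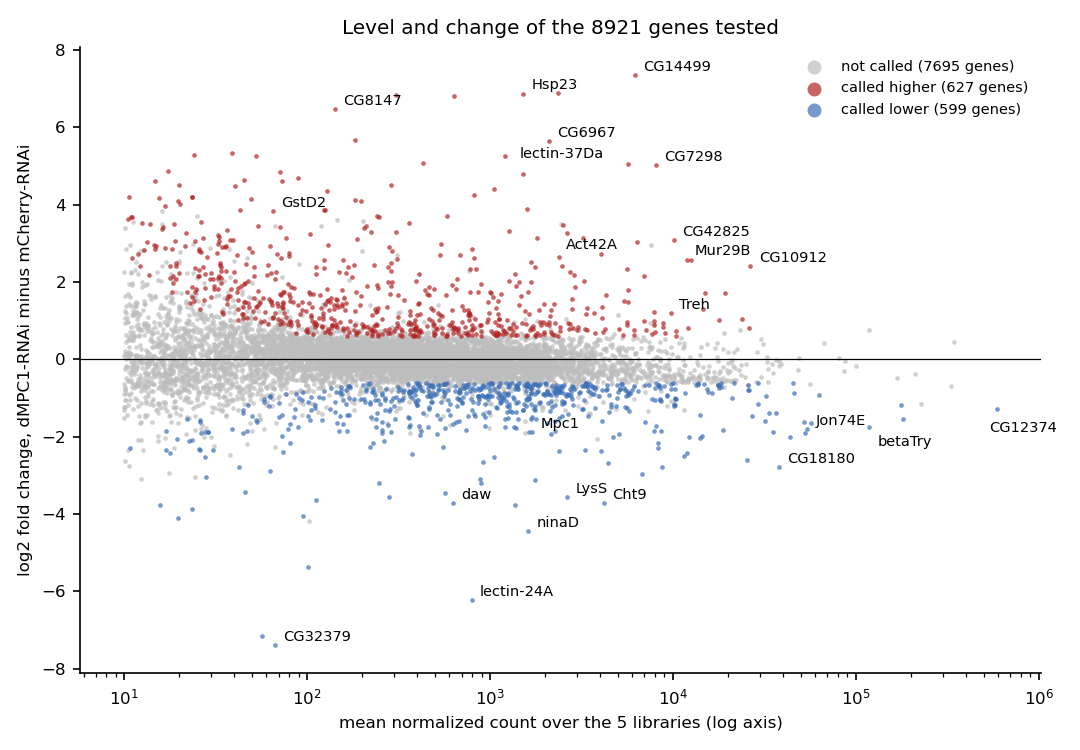
Each point is 1 of the 8921 genes tested, with its mean normalized count over the 5 libraries on a log axis and its log2 fold change, dMPC1-RNAi minus mCherry-RNAi, on the vertical axis. The called genes of highest level fell, such as CG12374. Rises of more than 5 log2 units lie below that level, from scarce genes such as Cyp12d1-d to abundant ones such as CG7298.

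Mpc1, the targeted gene, stood at 3114 and 2936 normalized counts in the control libraries and at 841, 803 and 819.5 in the knockdown libraries. The groups did not overlap, and the lower call was kept (log2 change -1.88, SE 0.08, adjusted p = 4.83e-05). Some 62.5% of the genes tested did not overlap between the groups, so separation alone is common here. CG9396, another gene on the carrier list, had 1027 and 823 in the control libraries and 428, 379 and 310.5 in the knockdown libraries and was called lower (log2 change -1.31, SE 0.16, adjusted p = 0.00187). Its call was lost without mCherry-RNAi replicate 1, mCherry-RNAi replicate 3 or dMPC1-RNAi replicate 2. CG9399, also on that list, had 1799.5 and 1645 in the control libraries and 802, 1153 and 1197 in the knockdown libraries. It was lower in every knockdown library but was not called (adjusted p = 0.0218). The other genes that the study targeted in enterocytes were l(1)G0334 and CG5261, 2 pyruvate dehydrogenase genes, ImpL3 (lactate dehydrogenase), bsk (the JNK kinase) and upd3. The first 4 of these were not called, with log2 changes of -0.34, -0.25, 0.67 and 0.42. The level of upd3, a cytokine gene, rose from 10.96 and 22.9 to 259.8, 292 and 328 normalized counts and kept its call (log2 change 4.12, SE 0.29, adjusted p = 0.000266).

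The enterocyte label was checked against part of the genes listed as enterocyte markers. Of that list, mex1, nub, deltaTry, gammaTry, Jon65Ai and Jon99Ci are not described, so the check is not complete. Myo61F was taken from the identity list below. Myo31DF, a brush border myosin, had 5638 and 5684 in the control libraries and 5584, 5122 and 5143 in the knockdown libraries, and Myo61F, a related myosin, had 19992 and 19713 in the control libraries and 24471, 23624 and 24032 in the knockdown libraries. Neither was called. Digestive enzymes, which enterocytes secrete, can also mark them and fell in part, so these myosins do not stand for all markers. The levels of betaTry and Jon25Biii fell (log2 changes of -1.76 and -1.61), and both kept their calls. Amy-p, alphaTry and Jon65Aiii were not called (log2 changes of -0.13, -0.49 and -0.37). In the trypsin and Jonah lists described below, 4 of 16 and 9 of 16 tested fell, and 2 rose in each. Of 19 tested genes of enterocyte and gut region identity, 4 rose and 2 fell (8 higher and 0 lower with total-read scaling). The 4 include mesh and Tsp2A, junction genes that are also on the septate junction list below. The list of 19 had a median log2 change of -0.16 against -0.01 for all genes tested. This median was 0.19 with total-read scaling and 0.06 with quantile scaling. GATAe, a GATA factor of the midgut endoderm, fell from 3017 and 2992 to 1657, 1801 and 1921 (log2 change -0.75, SE 0.09, adjusted p = 0.00165), and pdm2, a POU factor, rose from 195 and 187 to 748, 517 and 622 (log2 change 1.70, SE 0.16, adjusted p = 0.000696). Both calls were lost with either control left out, and that of GATAe also without dMPC1-RNAi replicate 2. Markers of tissues that can come with a dissected gut were read beside these. Shares here and below divide by each library's sum of normalized counts, so they follow total-read scaling. These sums were 15661796 and 15249386 in the control libraries and 11984575, 12325535 and 12205515 in the knockdown libraries. A share can thus rise while the list's own sum does not. The fat body list made up 0.236% and 0.184% of all normalized counts in the control libraries and 0.171%, 0.0905% and 0.0865% in the knockdown libraries. In it 3 of 8 tested members were called lower. It includes tobi, described below, which was far higher in knockdown replicate 1 than in any other library and adds to the share there. The Malpighian tubule list made up 0.384% and 0.349% of all normalized counts in the control libraries and 0.317%, 0.373% and 0.319% in the knockdown libraries, with 3 of 17 lower. The visceral muscle list made up 0.188% and 0.211% of all normalized counts in the control libraries and 0.228%, 0.229% and 0.232% in the knockdown libraries, with 1 of 18 lower. Its sums were 29505 and 32183 normalized counts in the control libraries and 27313, 28267 and 28275 in the knockdown libraries. Egg chamber genes summed to 33 and 50 normalized counts in the control libraries and to 309, 56 and 83 in the knockdown libraries, so replicate 1 was the highest, and 0 of 5 tested were called by limma (0 at an unadjusted p below 0.05, and 0 higher by edgeR).

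Most of the abundant transcripts that fell encode digestive enzymes. The zinc carboxypeptidase CG12374, which trims amino acids from the ends of peptides, had the highest level of any gene that was called. It stood at 969445 and 864465 normalized counts in the control libraries and at 317174, 419304 and 405276 in the knockdown libraries (log2 change -1.28, SE 0.21, adjusted p = 0.00502). Under quantile scaling its change was -0.38 and was not called (adjusted p = 0.222). The call was also lost with no filter on low values (adjusted p = 0.017), with either control left out, and without dMPC1-RNAi replicate 2 or 3. The 10 called genes that lost most counts (CG12374, CG34220, Bace, betaTry, CG6295, Jon74E, CG18180, CG17633, Jon99Cii and Jon25Biii) made up 14.9% and 13.8% of all normalized counts in the control libraries and 6.02%, 6.93% and 6.85% in the knockdown libraries. These genes were picked by their loss in these libraries, so the shares are a description. The 10 called genes that gained most counts (CG10912, CG15043, AOX1, CG3290, Mur29B, CG15784, CG42825, mesh, CG7298 and CG9568) were picked in the same manner and made up 0.439% and 0.472% against 2.00%, 1.87% and 1.90%. Over 6 digestive families of 98 genes the share was 22.2% and 21.6% against 12.3%, 14.3% and 14.8%.

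**Figure D2:**
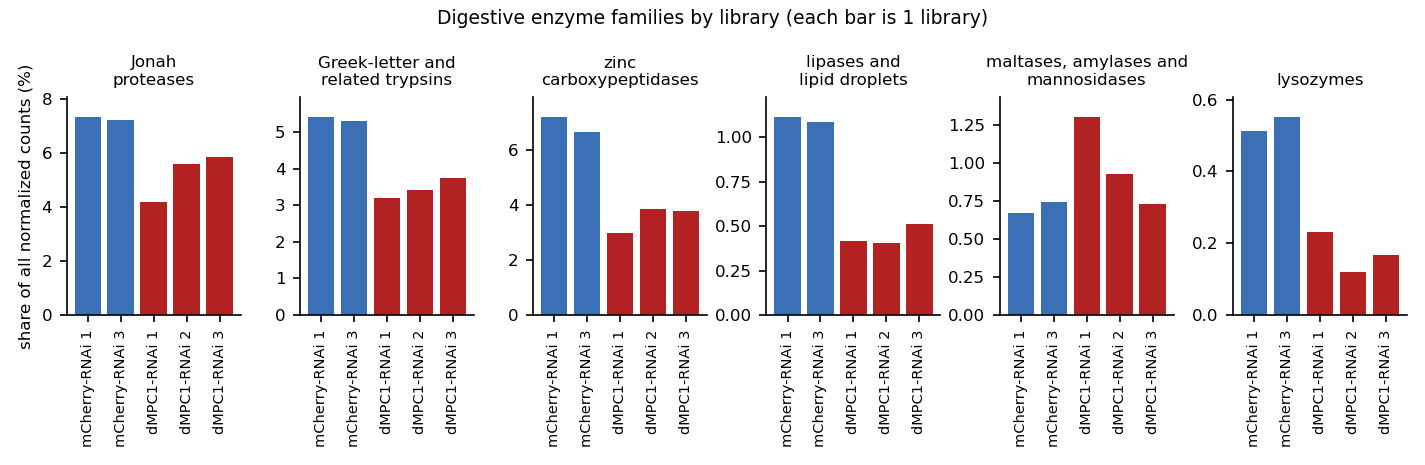
Each bar is 1 library and its height is the share of all normalized counts taken by a gene list, in percent, with blue for mCherry-RNAi and red for dMPC1-RNAi. The lipase list also holds lipid droplet genes such as Lsd-1. Zinc carboxypeptidases made up 7.18% and 6.64% in the controls and 2.99% to 3.86% in the knockdown, while maltases, amylases and mannosidases made up 0.669% and 0.741% in the controls and 0.731% to 1.30% in the knockdown.

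Zinc carboxypeptidases fell in 8 of 13 tested members and rose in 0, with a median log2 change of -1.28. CG7025 went from 2959 and 2957 to 893, 1144 and 997 (log2 change -1.55, SE 0.12, adjusted p = 0.000308) and kept its call. CG8560 went from 26793 and 24785 to 5014, 6974 and 7197 (log2 change -2.03, SE 0.17, adjusted p = 0.000453). It lies beside CG32379, CG8562 and CG18417 on chromosome arm 3L in the BDGP6.54 annotation, and all 4 neighbours were called lower. In CG32379 the contrast was complete, with 148 and 187 normalized counts in the control libraries and 0 in every knockdown library. Against a floor of 3 reads per library this is at least 62.2-fold lower. Its call was lost with either control left out. The uncalled members of highest level, CG14820 and CG18585, had log2 changes of -0.35 and -0.07. Falls in this family numbered 1 without mCherry-RNAi replicate 1, 2 without mCherry-RNAi replicate 3, and 8, 6 and 7 without dMPC1-RNAi replicates 1, 2 and 3.

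Jonah genes encode chymotrypsin-like and trypsin-like proteases of the gut. Of 16 tested, 9 fell and 2 rose, with a median log2 change of -0.89. Jon74E had 98813 and 90985 in the control libraries and 29219, 26763 and 25978 in the knockdown libraries (log2 change -1.80, SE 0.11, adjusted p = 0.000208). Jon25Biii, Jon99Cii and Jon99Ciii fell, with log2 changes of -1.61, -2.01 and -1.88, and these 4 genes kept their calls. Jon66Cii went the other way, from 108 and 141 to 781, 771 and 860.4 (log2 change 2.69, SE 0.13, adjusted p = 9.71e-05), and kept its call. Its neighbour in name Jon66Ci rose by 1.42, from 1047 and 1184 to 2686, 2846 and 3456. The abundant Jon65Aiv and Jon65Aiii were not called, with log2 changes of -0.68 and -0.37 and adjusted p = 0.0603 and 0.256. Several Jonah genes are near-identical pairs, so reads may be shared between them. Falls numbered 5 without mCherry-RNAi replicate 1, 5 without mCherry-RNAi replicate 3, and 9, 5 and 8 without dMPC1-RNAi replicates 1, 2 and 3.

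Trypsins were mixed, with 4 of 16 tested lower and 2 higher. The level of betaTry was 213042 and 196422 in the control libraries and 62009, 60939 and 58301 in the knockdown libraries, and the groups did not overlap (log2 change -1.76, SE 0.12, adjusted p = 0.000243). Falls of zetaTry and iotaTry were 1.03 and 0.90 on the log2 scale. Try29F rose from 94.2 and 108 to 1126, 656 and 710.0 (log2 change 2.99, SE 0.23, adjusted p = 0.000372), and betaTry and Try29F kept their calls. For etaTry the rise was 0.91, from 1276 and 1364 to 2194, 2483 and 2771, and it was lost without either control or without dMPC1-RNAi replicate 2. The abundant yip7 and alphaTry were lower in every knockdown library but were not called (adjusted p = 0.0125 and 0.0399). Reads of the clustered Greek-letter trypsins may likewise be shared. Falls numbered 1 without mCherry-RNAi replicate 1, 2 without mCherry-RNAi replicate 3, and 5, 3 and 4 without dMPC1-RNAi replicates 1, 2 and 3, and rises 1 without mCherry-RNAi replicate 1, 1 without mCherry-RNAi replicate 3, and 5, 1 and 2 without dMPC1-RNAi replicates 1, 2 and 3. Bace, an aspartyl protease outside these lists, fell from 277483 and 253189 to 101465, 127132 and 120902 (log2 change -1.19, SE 0.16, adjusted p = 0.00232). With quantile scaling its change was -0.40 and was not called (adjusted p = 0.0548), and the call was lost with either control or dMPC1-RNAi replicate 3 left out.

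Carbohydrases did not follow the proteases. Of 20 maltases, amylases and mannosidases, 2 were called lower (Mal-B1 and the mannosidase CG9465, log2 changes of -0.91 and -2.11) and 0 higher, and the median log2 change was 0.01. Over all genes tested 6.71% were called lower and 7.03% higher. Amy-p, an amylase, had 27485 and 25417 in the control libraries and 29419.9, 24393 and 19683 in the knockdown libraries, and its groups overlapped. The family made up 0.669% and 0.741% of all normalized counts in the control libraries and 1.3%, 0.924% and 0.731% in the knockdown libraries, highest in knockdown replicate 1. Falls numbered 0 without mCherry-RNAi replicate 1, 0 without mCherry-RNAi replicate 3, and 5, 3 and 0 without dMPC1-RNAi replicates 1, 2 and 3.

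Lipid handling genes formed another falling group. Of 18 tested lipases and lipid droplet genes, 7 fell and 3 rose, and their summed share was 1.11% and 1.09% of all normalized counts in the control libraries and 0.417%, 0.405% and 0.512% in the knockdown libraries. The gene mag (magro), a gastric lipase of the midgut, had 17947 and 17716 in the control libraries and 3751, 2440.4 and 1853 in the knockdown libraries (log2 change -2.79, SE 0.27, adjusted p = 0.000773). The lipases CG6295 and CG17192 went from 96764 and 91417 to 21804, 21553 and 33097 and from 24353 and 22332 to 3419.8, 4346 and 5572, log2 changes of -1.91 and -2.42. Both perilipins, the coat proteins of lipid droplets, were lower. Lsd-1 fell from 1643 and 1435 to 526, 553 and 561 (log2 change -1.49, SE 0.09, adjusted p = 0.000208) and kept its call, and Lsd-2 fell from 12462 and 12068 to 6116, 5989.6 and 5986 (log2 change -1.02, SE 0.08, adjusted p = 0.000332). By contrast Npc2e, which encodes a sterol-binding protein of the Niemann-Pick type C2 family, rose from 240.0 and 240.2 to 1033, 1150.1 and 1511 (log2 change 2.33, SE 0.16, adjusted p = 0.000243) and kept its call, and Npc2a rose by 2.09. The highest uncalled members, Npc1b and bmm (the brummer lipase), changed by -0.37 and -0.66 (adjusted p = 0.0464 and 0.188), and bmm was lowest in knockdown replicate 1 at 1064, 2438 and 2373. Falls in this list numbered 1 without mCherry-RNAi replicate 1, 3 without mCherry-RNAi replicate 3, and 9, 7 and 7 without dMPC1-RNAi replicates 1, 2 and 3.

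Lipoproteins and CD36-type scavenger receptors fell in 6 of 11 tested members and rose in 0. The scavenger receptor ninaD, known for carotenoid uptake in the midgut, had 3841 and 3678 in the control libraries and 299, 93.1 and 182 in the knockdown libraries, a difference of 19.6-fold between the group means (log2 change -4.44, SE 0.43, adjusted p = 0.000786). Rfabg (apolpp), the precursor of the main hemolymph lipoprotein, fell from 4505 and 3299.9 to 1078, 854 and 1111 (log2 change -1.93, SE 0.17, adjusted p = 0.000568) and kept its call. Rfabg is also on the fat body list, where Yp1 and Yp2, yolk proteins made by fat body and ovary, fell by 1.73 and 1.23 on the log2 scale, and the part of fat body RNA in the fall of Rfabg was not tested. The receptors emp and LpR1 fell by 1.42 and 1.12. The calls of ninaD, emp and LpR1 were each lost with either control left out. The abundant scavenger receptor pes and the lipophorin receptor LpR2 changed by 0.07 and 0.02 and were not called. Falls numbered 1 without mCherry-RNAi replicate 1, 1 without mCherry-RNAi replicate 3, and 6, 4 and 4 without dMPC1-RNAi replicates 1, 2 and 3.

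Lipid synthesis was lower in part. Of 22 tested genes of fatty acid and sterol synthesis and its sugar-responsive control, 7 fell and 0 rose (3 higher and 4 lower with total-read scaling). Mio (Mondo), the sugar-sensing transcription factor, had 4432 and 4150.3 in the control libraries and 1488, 1674 and 1672 in the knockdown libraries (log2 change -1.41, SE 0.09, adjusted p = 0.000208) and kept its call. Mio overlaps 7 annotated genes on the other strand and 5 on its own, so its count may hold reads of others. The stearoyl-CoA desaturase Desat1 fell from 14608 and 14858 to 7776, 7109 and 7202 (log2 change -1.002, SE 0.09, adjusted p = 0.000518), and CG3523 (FASN1), a fatty acid synthase, from 7606 and 7553 to 4581, 4294 and 3968 (log2 change -0.83, SE 0.09, adjusted p = 0.00117). The activin-like ligand daw, a sugar-responsive gene that represses digestive enzymes in the fly midgut, dropped from 1371 and 1435 to 169, 89.3 and 76.8, or 12.6-fold between the group means (log2 change -3.73, SE 0.31, adjusted p = 0.000496). Its call was lost without mCherry-RNAi replicate 1. Of the highest uncalled members, CG4753 changed by -0.28 and Lpin by -0.36. Falls numbered 1 without mCherry-RNAi replicate 1, 2 without mCherry-RNAi replicate 3, and 8, 4 and 6 without dMPC1-RNAi replicates 1, 2 and 3.

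Acyl-CoA-binding proteins, which carry activated fatty acids, moved the other way, and this family was chosen after its values were seen. Of 5 tested, 3 rose and 0 fell. CG15829 (Acbp6) went from 172 and 157 to 1044, 1131 and 1477 (log2 change 2.86, SE 0.16, adjusted p = 0.000132), CG8628 (Acbp3) from 2712 and 2710.4 to 5645, 8517 and 8854 (log2 change 1.47, SE 0.19, adjusted p = 0.00232), and CG5804 (Acbp5) from 7185 and 7709 to 11065, 13162 and 13145 (log2 change 0.74, SE 0.11, adjusted p = 0.00364). The highest-expressed uncalled member, Dbi (Acbp2), had 3994 and 4057 in the control libraries and 4996, 4840.4 and 5281 in the knockdown libraries. CG15829 kept its call.

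**Figure D3:**
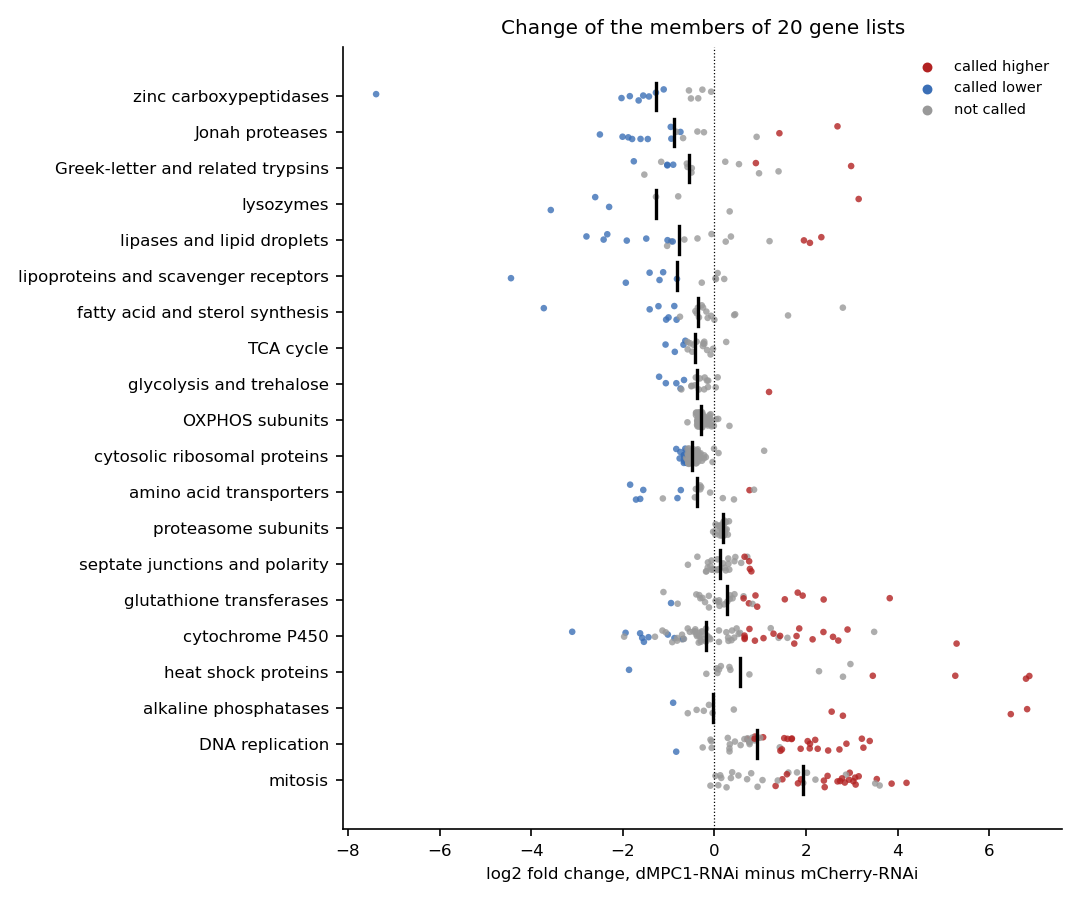
Each point is 1 tested member of a gene list, placed by its log2 fold change, dMPC1-RNAi minus mCherry-RNAi, with black bars at the list medians and a dotted line at the median of all genes tested. Zinc carboxypeptidases have the lowest median of these lists, -1.28, and mitosis genes the highest, 1.94, while OXPHOS subunits and proteasome subunits lie in narrow bands with 0 calls.

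Genes around pyruvate itself fell in part. Of 13 tested genes of pyruvate dehydrogenase and other pyruvate fates, 4 fell and 0 rose (2 higher and 2 lower with total-read scaling), with a median log2 change of -0.34, or 0.01 with total-read scaling. CG1516, the pyruvate carboxylase that makes oxaloacetate, had 9378 and 8844 in the control libraries and 3344, 3790.2 and 3615 in the knockdown libraries (log2 change -1.35, SE 0.09, adjusted p = 0.000224) and kept its call. Pdk, the kinase that inhibits pyruvate dehydrogenase, fell from 2249 and 2314 to 1199, 1151 and 1199 (log2 change -0.95, SE 0.07, adjusted p = 0.000384). CG10924, a phosphoenolpyruvate carboxykinase, and AcCoAS, the acetyl-CoA synthetase, fell by 0.87 and 0.88 on the log2 scale. ImpL3, lactate dehydrogenase, was higher in every knockdown library, with 870.2 and 904 in the control libraries and 1717, 1268 and 1294 in the knockdown libraries, but was not called (log2 change 0.67, SE 0.14, adjusted p = 0.0136). Malic enzyme (Men) missed the threshold narrowly (log2 change -0.98, SE 0.19, adjusted p = 0.0102) and was called without dMPC1-RNAi replicate 1. Falls in this list numbered 1 without mCherry-RNAi replicate 1, 1 without mCherry-RNAi replicate 3, and 5, 3 and 3 without dMPC1-RNAi replicates 1, 2 and 3.

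In glycolysis and trehalose use, 5 of 20 genes fell and 1 rose (1 higher and 2 lower with total-read scaling). The trehalase Treh, which splits the blood sugar of insects, rose from 5318 and 5588 to 14904, 11923 and 10887 (log2 change 1.19, SE 0.14, adjusted p = 0.00157). Hex-C, a hexokinase, fell from 1715 and 1578 to 804, 779.5 and 781 (log2 change -1.06, SE 0.08, adjusted p = 0.000334), Gpdh, glycerol-3-phosphate dehydrogenase, from 8822 and 8639.5 to 4854, 5009 and 4855 (log2 change -0.83, SE 0.08, adjusted p = 0.000665), and UGP, UDP-glucose pyrophosphorylase, by 1.21. Of the 20 log2 changes 17 were below 0, with a median of -0.37, or -0.03 with total-read scaling. The abundant Eno and Ald had log2 changes of -0.14 and -0.32 and were not called. Falls numbered 0 without mCherry-RNAi replicate 1, 2 without mCherry-RNAi replicate 3, and 5, 3 and 3 without dMPC1-RNAi replicates 1, 2 and 3. The call of Treh was lost with either control left out.

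TCA cycle genes fell in 4 of 18 cases and rose in 0 (1 higher and 1 lower with total-read scaling), and 17 of the 18 log2 changes were below 0. Citrate synthase (kdn) had 16004 and 16073 in the control libraries and 7608, 9419 and 9527 in the knockdown libraries (log2 change -0.87, SE 0.12, adjusted p = 0.00289). Idh, the NADP-dependent isocitrate dehydrogenase, fell from 12869.7 and 12151 to 5845, 6409 and 5670.4 (log2 change -1.07, SE 0.09, adjusted p = 0.000527). The subunit l(1)G0156 (Idh3a) and Acon (aconitase) fell by 0.64 and 0.68. Mdh1, Mdh2 and Nc73EF (oxoglutarate dehydrogenase) reached adjusted p of 0.00283, 0.00471 and 0.00517 but stayed under the fold threshold, with log2 changes of -0.59, -0.58 and -0.53. The list median was -0.42, and -0.08 with total-read scaling, where the median of all genes was 0.34. Falls numbered 0 without mCherry-RNAi replicate 1, 1 without mCherry-RNAi replicate 3, and 5, 2 and 3 without dMPC1-RNAi replicates 1, 2 and 3.

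Structural parts of the respiratory chain were not called. All 64 tested OXPHOS subunits missed the threshold in the limma test (42 had an unadjusted p below 0.05, and edgeR called 0 higher and 0 lower), with log2 changes from -0.59 to 0.33 and a median of -0.29 that became 0.06 with total-read scaling. ATPsyn-beta, a subunit of ATP synthase, had 28221 and 26665 in the control libraries and 18429.7, 22296 and 22102 in the knockdown libraries (adjusted p = 0.0436). Among 72 mitochondrial ribosomal proteins 1 was called, mRpL37, with a log2 change of 0.60. Cytosolic ribosomal proteins fell in 17 of 85 cases and rose in 0, in a narrow band with a median of -0.50, which was -0.16 with quantile scaling and -0.15 with total-read scaling. RpS29 fell from 21078 and 20911 to 12778, 10483 and 12216 (log2 change -0.83, SE 0.11, adjusted p = 0.00238), and RpLP0 by 0.66. Their 17 falls became 0 without mCherry-RNAi replicate 1, 0 without mCherry-RNAi replicate 3, and 32, 1 and 0 without dMPC1-RNAi replicates 1, 2 and 3. Subunits of the vacuolar proton pump, which acidifies lysosomes and parts of the gut lumen, had a median of -0.43 with 1 of 21 called, Vha16-1, at 57495 and 57731 in the control libraries and 38144, 37374 and 36737 in the knockdown libraries. Under quantile scaling the change of Vha16-1 was 0.06 and was not called. Proteasome subunits were called in 0 of 32 cases by limma, with 13 at an unadjusted p below 0.05 and 0 called higher by edgeR.

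Transport and amino acid use fell in part. Of 18 tested amino acid transporters, 6 fell and 1 rose (1 higher and 3 lower with total-read scaling). Eaat1, a glutamate transporter, went from 1381 and 1224 to 333.8, 428 and 333 (log2 change -1.84, SE 0.14, adjusted p = 0.000318) and gb (genderblind), a cystine and glutamate exchanger subunit, from 450.4 and 556 to 177, 169.9 and 163 (log2 change -1.55, SE 0.12, adjusted p = 0.000375). Both kept their calls. The cationic amino acid transporter slif (slimfast) fell by 0.81. Among 16 sugar and monocarboxylate transporters 2 fell (3 higher and 1 lower with total-read scaling), CG13907 and the trehalose transporter Tret1-1, by 0.80 and 1.01. Over all genes tested 6.71% fell. Of 16 genes of serine and one-carbon metabolism and ATF4 response, 4 fell and 1 rose (5 higher and 3 lower with total-read scaling), and 0 were called with either control left out. The phosphoserine phosphatase aay had 2126 and 2031 in the control libraries and 436, 799.7 and 676 in the knockdown libraries (log2 change -1.75, SE 0.24, adjusted p = 0.00262), and the stress-responsive Sesn fell by 1.05. Both lost their calls with either control left out. Falls numbered 2 without mCherry-RNAi replicate 1, 2 without mCherry-RNAi replicate 3, and 7, 4 and 3 without dMPC1-RNAi replicates 1, 2 and 3 for the amino acid transporters.

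Secreted and surface-bound enzymes split into genes that rose steeply and genes that fell. Of 11 tested alkaline phosphatases, 4 rose and 1 fell. CG8147 (phu) had 2.19 and 1.04 in the control libraries and 190.2, 338 and 178 in the knockdown libraries (log2 change 6.47, SE 0.36, adjusted p = 0.000132), and CG3264 (Alp8) had 4.38 and 2.08 in the control libraries and 249, 727 and 544 in the knockdown libraries (log2 change 6.83, SE 0.47, adjusted p = 0.000243), so both were near absence in the controls. CG3290 (Alp2), the most abundant of the risers, went from 3106 and 3186 to 15476, 23502 and 17566 (log2 change 2.56, SE 0.17, adjusted p = 0.000243). These 3 kept their calls. CG16771 fell from 3062 and 2773 to 1667, 1502 and 1515 (log2 change -0.90, SE 0.09, adjusted p = 0.000885). The abundant CG5150 was not called, with 17939.6 and 17241 in the control libraries and 11219.7, 22663 and 19703 in the knockdown libraries, lowest in knockdown replicate 1.

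Of 32 tested genes of the peritrophic matrix, 4 were higher and 3 lower (7 higher and 3 lower with total-read scaling), against 7.03% and 6.71% of all genes tested. The mucin gene Mur29B had 2919 and 3035 in the control libraries and 17516, 16302 and 19753 in the knockdown libraries (log2 change 2.58, SE 0.10, adjusted p = 4.83e-05). The chitinase genes diverged: Cht9 fell from 10249 and 8628 to 791, 646 and 700.2 (log2 change -3.73, SE 0.12, adjusted p = 2.25e-05) and Cht4 rose from 404 and 525 to 1554, 1366 and 1324 (log2 change 1.61, SE 0.13, adjusted p = 0.000475). These 3 genes kept their calls. Mur18B, another mucin-type gene, fell by 1.38 from 59671 and 56933 to 22897, 24889.6 and 19839.8. Rises in this list numbered 2 without mCherry-RNAi replicate 1, 3 without mCherry-RNAi replicate 3, and 6, 3 and 3 without dMPC1-RNAi replicates 1, 2 and 3, and falls 1 without mCherry-RNAi replicate 1, 2 without mCherry-RNAi replicate 3, and 4, 3 and 3 without dMPC1-RNAi replicates 1, 2 and 3. The uncalled Muc11A had 20918 and 14313 in the control libraries and 10743, 12179.8 and 10123 in the knockdown libraries, and the groups did not overlap (adjusted p = 0.0287).

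A run of 6 neighbouring genes on chromosome arm 3L of the BDGP6.54 annotation rose together. It was 1 of 7 runs of 4 or more tested neighbours called in the same direction. CG7298 rose from 399 and 394 to 9712, 15404 and 14449.7 (log2 change 5.02, SE 0.19, adjusted p = 4.62e-05), CG7017 from 3.29 and 4.16 to 172, 96.0 and 91.5 (log2 change 4.62, SE 0.33, adjusted p = 0.000281), and CG6933 from 26.3 and 28.1 to 243, 420.5 and 496 (log2 change 3.72, SE 0.29, adjusted p = 0.000375). These 3 kept their calls. CG17145 and CG17147 were scarce, with 27.4, 24.96 and 28.6 and 19.2, 16.3 and 15.5 normalized counts in the knockdown libraries. The call of CG17147 was lost in each of the 5 leave-one-out fits, and that of CG17145 without mCherry-RNAi replicate 3 or dMPC1-RNAi replicate 2 or 3. The sixth, CR32224, overlaps 1 gene on the other strand, and the strand use of the counting is not given in the sources used here, so its reads and those of its partner cannot be told apart.

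Lysozyme genes encode enzymes that digest bacterial cell walls, several of them as digestive enzymes of the midgut. Of 7 tested, 3 fell and 1 rose. LysS had 5595 and 6117 in the control libraries and 683, 359 and 481 in the knockdown libraries (log2 change -3.57, SE 0.25, adjusted p = 0.000243) and kept its call, and LysD, the most abundant, fell from 48914 and 51387 to 13459, 5286 and 7899 (log2 change -2.60, SE 0.35, adjusted p = 0.00246). LysX rose from 266 and 342 to 1759, 2897 and 3805 (log2 change 3.15, SE 0.31, adjusted p = 0.000807). LysB, LysC, LysD and LysE are near-identical, so their reads may be divided among them. Falls numbered 1 without mCherry-RNAi replicate 1, 1 without mCherry-RNAi replicate 3, and 5, 3 and 2 without dMPC1-RNAi replicates 1, 2 and 3.

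C-type lectins bind sugars on cells and microbes. Of 9 tested, 3 rose and 2 fell, and the extremes were far apart. Values of lectin-37Da were 283 and 279 in the control libraries and 9846, 8749 and 9253 in the knockdown libraries (log2 change 5.04, SE 0.08, adjusted p = 1.95e-06). Its neighbour lectin-37Db rose from 1170.5 and 1409.8 to 3792, 3721 and 3951 (log2 change 1.57, SE 0.10, adjusted p = 0.000216), and both kept their calls. In the other direction, lectin-24A fell from 1781 and 2099 to 68.6, 10.6 and 20.4 (log2 change -6.23, SE 0.67, adjusted p = 0.00111), with the highest knockdown value in replicate 1. Its call was lost with either control left out.

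**Figure D4:**
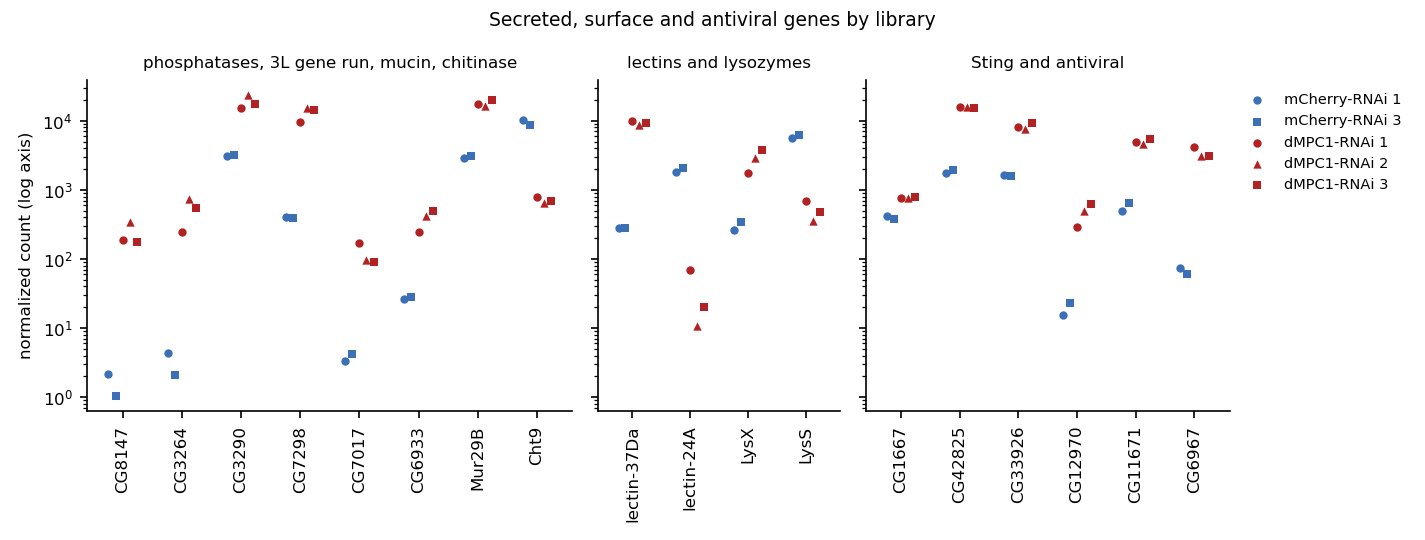
Normalized counts on a log axis for 18 genes, with 1 point per library, blue for mCherry-RNAi and red for dMPC1-RNAi. In each gene the 3 knockdown libraries lie on 1 side of both controls, above them for lectin-37Da (8749 to 9846 against 279 and 283) and below them for lectin-24A, Cht9 and LysS.

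Most of the genes listed for the Sting antiviral pathway rose. Sting is a receptor that, in flies and mammals, senses cyclic dinucleotides and turns on antiviral genes, and cGLR enzymes make those dinucleotides when they bind double-stranded RNA. This list was put together after its values were seen, so its count is a description. Of 12 tested, 8 were called higher and 0 lower. CG13641 (Srg1), also on the list, was too low to be tested. It had 6.58 and 7.28 in the control libraries and 4.57, 0 and 1.63 in the knockdown libraries. CG1667 (Sting) had 419.8 and 372 in the control libraries and 766, 765 and 788 in the knockdown libraries (log2 change 0.97, SE 0.09, adjusted p = 0.000708). The sensor gene CG12970 (cGlr1) rose from 15.3 and 22.9 to 293, 487 and 628 (log2 change 4.50, SE 0.33, adjusted p = 0.000301). CG42825 (Srg2) and CG33926 (Srg3), named as Sting-regulated genes, rose from 1745 and 1935 to 16024, 15737 and 15225 (log2 change 3.09, SE 0.09, adjusted p = 1.72e-05) and from 1641 and 1607 to 8075, 7552 and 9139.6 (log2 change 2.34, SE 0.10, adjusted p = 5.38e-05). CG11671 (Nazo), an antiviral effector, went from 498 and 647 to 4912, 4664 and 5367 (log2 change 3.13, SE 0.13, adjusted p = 4.83e-05). Among genes of RNA silencing and its partners, AGO2, the Argonaute of the antiviral RNAi pathway, rose from 2137 and 2009 to 5565, 4351 and 4365 (log2 change 1.19, SE 0.13, adjusted p = 0.00107), while Dcr-2, its Dicer, had a log2 change of 0.58, under the fold threshold. CG6967 (Mov10), an RNA helicase, rose from 74.5 and 60.3 to 4185, 3076 and 3078 (log2 change 5.65, SE 0.17, adjusted p = 1.73e-05), the eighth largest rise among called genes whose groups did not overlap. The caspase gene Damm rose by 1.80. CG30424 (cGlr2), vir-1 and Rel, the NF-kappaB factor of this pathway, were not called, with log2 changes of 0.46, -0.20 and -0.02. The calls of CG42825, CG33926, CG12970, CG11671, CG6967 and Damm were kept, and those of CG1667 and AGO2 were lost with either control left out. CG6967, Damm, CG42825 and CG33926 overlap other annotated genes, and CG12970 and CG11671 overlap none. The RNAi construct and the loss of its target differ between the groups together and cannot be told apart here.

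Genes of bacterial defence and cytokine signalling were read next. Of 23 tested genes of peptidoglycan recognition and the IMD pathway 3 rose, among them key (the IKK-gamma Kenny), from 722 and 726 to 2088, 1859.6 and 1833 (log2 change 1.41, SE 0.09, adjusted p = 0.000208), and 3 of 15 antimicrobial peptides rose. Over all genes tested 7.03% rose. Drsl2, a drosomycin-like peptide, had 2.19 and 7.28 in the control libraries and 129, 304 and 467 in the knockdown libraries (log2 change 5.69, SE 0.61, adjusted p = 0.00107), and Drsl3 rose by 4.15. Both lost their calls without mCherry-RNAi replicate 1, and Drsl3 also without dMPC1-RNAi replicate 2 or 3. In the JAK/STAT pathway 5 of 14 tested rose and 0 fell, among them the cytokine upd2, by 4.85. The stress peptide TotC, among these 5 and also on the stress peptide list, rose by 4.69, and upd2 and TotC kept their calls. Rises in the JAK/STAT list numbered 4 without mCherry-RNAi replicate 1, 4 without mCherry-RNAi replicate 3, and 5, 4 and 4 without dMPC1-RNAi replicates 1, 2 and 3.

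Heat shock proteins, chaperones that rise with protein stress, were higher and varied within the knockdown. Of 16 tested, 4 rose and 1 fell. Hsp23, a small heat shock protein, had 15.3 and 17.7 in the control libraries and 764, 2874 and 3933 in the knockdown libraries (log2 change 6.88, SE 0.64, adjusted p = 0.000691). Hsp26 rose from 39.5 and 54.1 to 972, 2066 and 2936 (log2 change 5.26, SE 0.43, adjusted p = 0.000453) and Hsp27 from 27.4 and 30.1 to 277, 299 and 418 (log2 change 3.46, SE 0.20, adjusted p = 0.000154). In each of these genes knockdown replicate 1 was the lowest of the 3. The difference was wider for Hsp83, the fly Hsp90, with 1145 and 1267 in the control libraries and 3259.7, 16546 and 15616 in the knockdown libraries, which was not called (log2 change 2.97, SE 0.67, adjusted p = 0.0169). DnaJ-1, the Hsp40 cochaperone, had the same order with 193 and 195 in the control libraries and 350.3, 1579 and 1547 in the knockdown libraries (adjusted p = 0.0329). Hsp70Bb fell from 704 and 776 to 145, 226 and 252 (log2 change -1.86, SE 0.23, adjusted p = 0.00182), though it is one of several near-identical Hsp70 copies. Without dMPC1-RNAi replicate 1, 9 of the list rose, against 4 with all libraries, 4 without dMPC1-RNAi replicate 2 or 3, 2 without mCherry-RNAi replicate 1 and 3 without mCherry-RNAi replicate 3. Hsp68 rose by 6.80 on the log2 scale (adjusted p = 0.000823), and Hsp27 and Hsp68 kept their calls. Of 24 endoplasmic reticulum chaperones 0 were called by limma with all 5 libraries (7 at an unadjusted p below 0.05, and 0 higher and 0 lower by edgeR), against 2 higher without dMPC1-RNAi replicate 1.

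**Figure D5:**
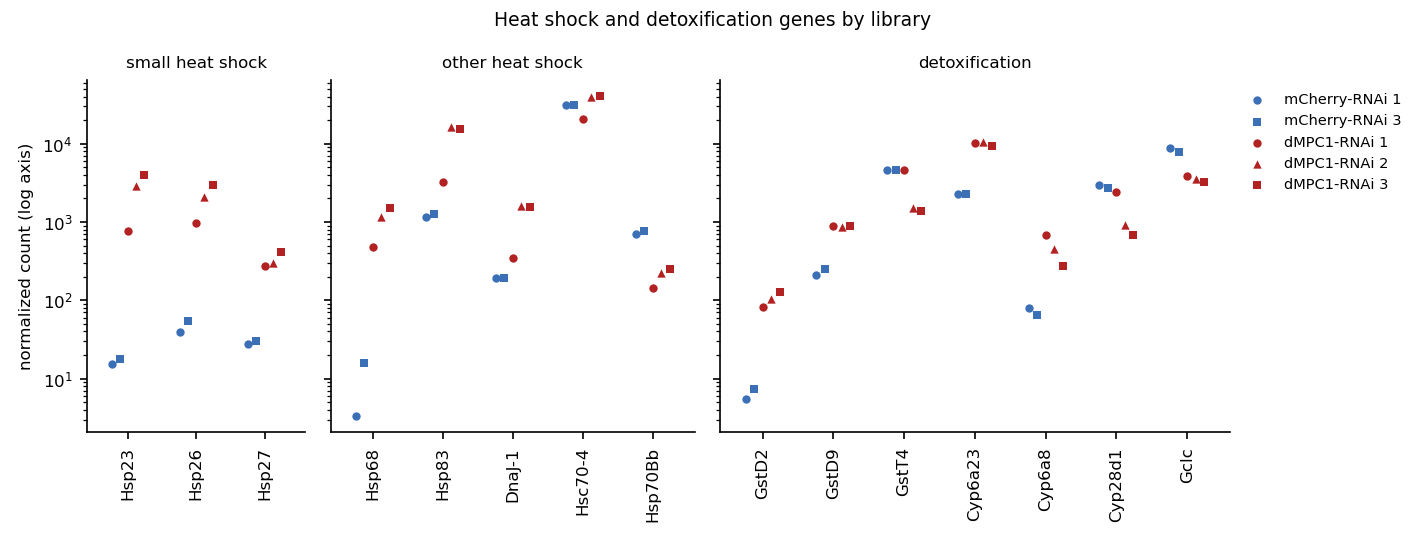
Normalized counts on a log axis for 15 heat shock and detoxification genes, with 1 point per library, blue for mCherry-RNAi and red for dMPC1-RNAi. The red circles of dMPC1-RNAi replicate 1 sit apart from replicates 2 and 3 for Hsp83 (3260 against 16546 and 15616), GstT4 and Cyp28d1, and beside them for Cyp6a23 and GstD9.

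Among the 10 largest falls were genes outside the gene lists. CG32751 had 3076 and 2983 in the control libraries and 83.2, 356 and 373 in the knockdown libraries (log2 change -3.76, SE 0.62, adjusted p = 0.0053), and CG32581 (sordd2) fell from 229 and 204 to 4.57, 15.4 and 23.7 (log2 change -4.05, SE 0.59, adjusted p = 0.00337). The muscarinic acetylcholine receptor gene mAChR-B went from 39.5 and 33.3 to 1.83, 2.88 and 0.82, CG14957 from 36.2 and 57.2 to 0.91, 1.92 and 2.45 and CG31741 from 37.3 and 69.7 to 7.32, 1.92 and 0.82. The 10 largest falls were picked among called genes whose groups did not overlap, so this separation was set by the choice. The calls of these 5 were lost with either control left out.

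Detoxification genes rose more often than they fell among glutathione transferases and were split among cytochrome P450 genes. Glutathione transferases attach glutathione to toxins and oxidized lipids. Of 31 tested, 9 rose and 1 fell, with a median log2 change of 0.28. GstD2 had 5.48 and 7.28 in the control libraries and 83.2, 104 and 127 in the knockdown libraries (log2 change 3.83, SE 0.26, adjusted p = 0.000243), and GstD9 rose from 210.4 and 251 to 879.9, 871 and 877 (log2 change 1.93, SE 0.10, adjusted p = 0.000114). GstD5 rose by 1.54, and these 3 kept their calls. They belong to a run of 6 neighbours on chromosome arm 3R (GstD10, GstD9, GstD1, GstD2, GstD3 and GstD5) that were all called higher, by 0.64 to 3.83 on the log2 scale. The abundant GstE12 changed by -0.40, and GstT4 had 4605 and 4620.2 in the control libraries and 4565, 1514 and 1401 in the knockdown libraries, with replicate 1 at the control level. Rises numbered 3 without mCherry-RNAi replicate 1, 3 without mCherry-RNAi replicate 3, and 10, 4 and 5 without dMPC1-RNAi replicates 1, 2 and 3. The enzymes that make glutathione went down: Gclc, the catalytic subunit of glutamate-cysteine ligase, fell from 8795 and 7859.8 to 3829, 3539 and 3250.3 (log2 change -1.24, SE 0.10, adjusted p = 0.000466), and Gclm, its modifier subunit, had a log2 change of -0.82. The call of Gclc was lost without mCherry-RNAi replicate 1, and that of Gclm in all leave-one-out fits but the one without dMPC1-RNAi replicate 1.

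Cytochrome P450 enzymes oxidize toxins, fatty acids and hormones. Of 72 tested, 17 rose and 9 fell. Cyp6a23 had 2269 and 2289 in the control libraries and 10268, 10626 and 9375 in the knockdown libraries (log2 change 2.14, SE 0.09, adjusted p = 4.83e-05) and Cyp4p1 rose from 673 and 664 to 2315, 2204 and 2207 (log2 change 1.74, SE 0.08, adjusted p = 5.38e-05). Cyp4ad1 and Cyp4d1 fell from 2363 and 2349 to 772, 823 and 835 and from 972 and 969 to 383, 364 and 327, by 1.54 and 1.44 on the log2 scale. These 4 kept their calls. Cyp12d1-d was at 0 in both controls and at 22.9, 49.0 and 49.0 in the knockdown libraries, at least 12.6-fold higher against a floor of 3 reads per library, but its reads may be shared with the near-identical Cyp12d1-p, which was not called (log2 change 1.23). Cyp28d1, named after its values were seen, had 2931 and 2729 in the control libraries and 2421, 908 and 690.4 in the knockdown libraries, so replicate 1 lay near the controls. Falls numbered 2 without mCherry-RNAi replicate 1, 3 without mCherry-RNAi replicate 3, and 20, 6 and 6 without dMPC1-RNAi replicates 1, 2 and 3, and rises 5 without mCherry-RNAi replicate 1, 7 without mCherry-RNAi replicate 3, and 17, 9 and 15 without dMPC1-RNAi replicates 1, 2 and 3. Among 31 UDP-glycosyltransferases 4 rose and 6 fell (7 higher and 3 lower with total-read scaling), against 7.03% and 6.71% of all genes tested. The list medians of both families turned from below 0 (-0.18 and -0.15) to above 0 (0.16 and 0.19) with total-read scaling.

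Knockdown replicate 1 also differed in some carbohydrate genes, named after their values were seen. The alpha-glucosidase gene tobi, a target of insulin and glucagon-like signals in flies, had 603 and 645 in the control libraries and 6686, 726 and 392 in the knockdown libraries (log2 change 0.99, SE 1.08, adjusted p = 0.51). The maltase Mal-A1 had 14367 and 16136 in the control libraries and 46734, 22293 and 16329.8 in the knockdown libraries and was not called either. In both, replicates 2 and 3 lay nearer the controls than replicate 1 did.

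Some junction and cytoskeleton genes were higher. Of 29 tested genes of septate junctions and polarity, 4 rose and 0 fell, against 7.03% and 6.71% of all genes tested. The list median log2 change was 0.12, against -0.01 for all genes tested. The 4 include mesh and Tsp2A, also counted among the identity genes above. The smooth septate junction genes mesh and Tsp2A had 17975 and 17949.6 in the control libraries and 34474, 29397 and 30616 in the knockdown libraries (log2 change 0.81, SE 0.11, adjusted p = 0.00232) and 2888 and 3073 in the control libraries and 5154, 4623 and 5549 in the knockdown libraries (log2 change 0.77, SE 0.10, adjusted p = 0.00225). Their partner Ssk changed by 0.44 (adjusted p = 0.0134). The E-cadherin gene shg and p120ctn, its binding partner, rose by 0.66 and 0.76. Rises numbered 0 without mCherry-RNAi replicate 1, 0 without mCherry-RNAi replicate 3, and 5, 2 and 2 without dMPC1-RNAi replicates 1, 2 and 3. Actin genes were looked at after their values were seen, and 8 of 18 tested rose with 0 falls. Act42A, a cytoplasmic actin, had 1027 and 1399 in the control libraries and 8818, 9645 and 11019.7 in the knockdown libraries (log2 change 3.03, SE 0.16, adjusted p = 0.000103) and kept its call, while Act5C, the more abundant cytoplasmic actin, had 56246 and 55484 in the control libraries and 72278, 74253 and 79225 in the knockdown libraries and was not called (adjusted p = 0.0271). The thymosin repeat gene cib and the cofilin gene tsr rose by 1.37 and 0.94. The myosin II light and heavy chains sqh and zip and their activator Rho1 rose by 0.78, 0.67 and 0.75. Actin-related Arp2 and Arp3 and the ERM protein Moe were not called, with log2 changes of 0.30, 0.17 and 0.14.

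In the extracellular matrix list 2 of 24 rose and 3 fell (7 higher and 1 lower with total-read scaling). Over all genes tested 7.03% rose and 6.71% fell (19.3% and 3.05% with total-read scaling). Mmp2, a matrix metalloproteinase, rose from 111 and 152 to 639, 535 and 623 (log2 change 2.19, SE 0.16, adjusted p = 0.000286) and kept its call, though it overlaps 6 annotated genes on the other strand and 4 on its own. Mmp1, with 2483 and 2441 in the control libraries and 3913, 3614 and 3451 in the knockdown libraries, reached adjusted p = 0.00384 at a log2 change of 0.57, under the fold threshold. The integrin subunit mys rose by 0.70. Both collagen IV chains fell, vkg from 229 and 259.9 to 116, 96.0 and 114 (log2 change -1.17, SE 0.14, adjusted p = 0.00156) and Cg25C (Col4a1) from 290.4 and 427 to 177, 157 and 176 (log2 change -1.05, SE 0.17, adjusted p = 0.00551). Collagen IV is also made by fat body and hemocytes. The fat body list made up 0.236% and 0.184% of normalized counts in the control libraries and 0.171%, 0.0905% and 0.0865% in the knockdown libraries. The share of knockdown replicate 1 includes its high tobi count. The hemocyte list made up 0.0233% and 0.0273% in the control libraries and 0.0362%, 0.0328% and 0.0319% in the knockdown libraries. Its sums were 3644 and 4164 normalized counts in the control libraries and 4336, 4039 and 3891 in the knockdown libraries. The part of these tissues in the collagen falls was not tested. Falls in the list numbered 0 without mCherry-RNAi replicate 1, 0 without mCherry-RNAi replicate 3, and 3, 1 and 1 without dMPC1-RNAi replicates 1, 2 and 3.

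Growth factor and insulin signalling genes changed in 7 of 27 cases, 2 higher and 5 lower (6 higher and 2 lower with total-read scaling). Besides daw, wit, a type II BMP receptor, fell from 2428 and 2305 to 1031, 913 and 904 (log2 change -1.32, SE 0.09, adjusted p = 0.000245) and kept its call. S6k, the TOR target kinase, fell from 4327 and 4599 to 2739, 2729 and 2718 (log2 change -0.71, SE 0.08, adjusted p = 0.00106), and Thor (4E-BP) and foxo fell by 1.06 and 0.84. Ilp3, an insulin-like peptide, rose from 51.5 and 37.4 to 119.8, 108 and 154 (log2 change 1.49, SE 0.22, adjusted p = 0.0034), and ImpL2, a secreted insulin antagonist, from 365 and 482 to 721, 1039 and 1214 (log2 change 1.21, SE 0.23, adjusted p = 0.00933). The calls of S6k, Thor, foxo, Ilp3 and ImpL2 were lost with either control left out, and falls numbered 1 without mCherry-RNAi replicate 1, 2 without mCherry-RNAi replicate 3, and 6, 3 and 3 without dMPC1-RNAi replicates 1, 2 and 3. Of 18 enteroendocrine genes 2 rose and 2 fell (6 higher and 1 lower with total-read scaling), against 7.03% and 6.71% of all genes tested. CCHa1, a peptide hormone of these cells, rose from 93.2 and 112 to 361, 400.3 and 485 (log2 change 2.00, SE 0.16, adjusted p = 0.000384), while the vesicle gene Syt4 fell from 768 and 808 to 237, 213 and 253 (log2 change -1.75, SE 0.11, adjusted p = 0.000205). Both kept their calls, and the hormone Tk was not called (log2 change 0.16).

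Copper and iron genes fell in 3 of 19 cases and rose in 0 (1 higher and 2 lower with total-read scaling). MtnA, a metallothionein that binds copper, had 44025 and 43075 in the control libraries and 22975, 16579 and 19398 in the knockdown libraries (log2 change -1.16, SE 0.15, adjusted p = 0.0021). Its regulator MTF-1 fell from 2230.3 and 2189.5 to 1365, 1259 and 1354 (log2 change -0.74, SE 0.08, adjusted p = 0.00109), and CG32557, a multicopper oxidase, by 0.96. The ferritin chains Fer1HCH and Fer2LCH were not called (log2 changes -0.02 and -0.16). All 3 calls were lost without mCherry-RNAi replicate 1. Falls numbered 0 without mCherry-RNAi replicate 1, 1 without mCherry-RNAi replicate 3, and 6, 3 and 2 without dMPC1-RNAi replicates 1, 2 and 3.

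Genes of cell division were higher. Of 43 DNA replication genes 22 rose and 1 fell, and of 43 mitosis genes 21 rose and 0 fell. PCNA, the replication clamp, had 13.2 and 19.8 in the control libraries and 177, 142 and 171 in the knockdown libraries (log2 change 3.25, SE 0.22, adjusted p = 0.000232), and feo, a spindle midzone gene, rose from 4.38 and 3.12 to 86.0, 67.2 and 53.9 (log2 change 3.87, SE 0.31, adjusted p = 0.000407). Both kept their calls. Rises in DNA replication numbered 7 without mCherry-RNAi replicate 1, 11 without mCherry-RNAi replicate 3, and 27, 9 and 11 without dMPC1-RNAi replicates 1, 2 and 3, and in mitosis 6 without mCherry-RNAi replicate 1, 10 without mCherry-RNAi replicate 3, and 23, 7 and 9 without dMPC1-RNAi replicates 1, 2 and 3. Egg chamber genes were highest in knockdown replicate 1 (309 normalized counts against 33 to 83 in the other libraries). Its part in these rises was not tested. Without that library the rises were 27 and 23, while those over all genes went from 627 to 895.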

How the data were processed

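Total RNA of whole dissected intestines was read as 50-cycle single reads. The submitters' processing notes name Novoalign, DESeq and the dm3 build, and the paper's methods name USeq with DESeq. For their versions, the gene annotation and the strand use of the counting, nothing was found in the labels or methods. The authors deposited the values as a signal per gene, normalized counts, that is, reads divided by a size factor per library. All values came out as whole reads within a tolerance of 0.001 reads once the size factor of each library was undone, so the depth is known. The deposited table also holds the authors' own fold changes and adjusted p-values, which were not used, and 0 columns of other samples.

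Log2(normalized count + 1) was fitted with limma 3.58.1 (R 4.3.3), with a mean-variance trend and only the 5 libraries of the comparison, on genes with a mean of at least 10. P-values were adjusted by the Benjamini-Hochberg method over all 8921 genes. Fold changes on this scale understate those of low genes. Calls needed an adjusted p no higher than 0.01 and a log2 change no smaller than 0.6 in size. The log2 change is dMPC1-RNAi minus mCherry-RNAi, and SE is its standard error. EdgeR 4.0.16 on the recovered reads (606 called higher and 552 lower), DESeq2 1.42.0, other scalings, pseudocounts and filters, and leaving out each library were alternatives. The labels number 3 libraries per genotype and do not say whether they were raised apart. The methods call the pools of intestines biological replicates but state a larger number per genotype than the labels, so how these libraries map to those pools is not known and p-values measure only the spread between them.

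Genes were eligible to be named if they were the carrier genes and those the study targeted. Also eligible were the 10 largest rises and falls among called genes whose groups did not overlap. The 10 called genes gaining and losing most counts were eligible too. In each list up to 4 members of smallest p and the 2 of highest level that were not called were added. Not all of these are described. Further genes were chosen after their values were seen. The members and lists were chosen with earlier results of these data known. Symbols are those of the deposited table, with current symbols in parentheses, and 9791 of 9981 identifiers matched one. Neighbours and overlaps come from the BDGP6.54 annotation, which is another build than dm3, so no coordinates are given. Tables were handled with Python 3.11.15 and pandas 2.3.3.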

Additional observations from a re-analysis of the deposited data

How the results depend on the processing

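The counts of called genes moved most with the scaling and with the libraries used. Total-read scaling, chosen after the library sums were seen, gave 1724 genes higher and 272 lower, and the fit without a mean-variance trend gave 381 lower. Leaving out 1 library gave 128 to 895 higher and 59 to 1040 lower, and the cause was not tested. The replicate block gave 392 higher and 447 lower. Deviations of same-numbered libraries from their group means had correlations of -0.23 and -0.16. With 2 controls the deviations of 1 mirror those of the other, so these values cannot tell whether same-numbered libraries shared a batch. Under quantile scaling the change of Vha16-1 was 0.055 in place of -0.62. Of 175 named genes called, 5 lost the call in edgeR, 0 in DESeq2, 1 with TMM scaling, 22 with quantile scaling, 30 without the trend, 25 with total-read scaling and 21 with the replicate block. Leaving out mCherry-RNAi replicate 1 lost 110 of 174, and without mCherry-RNAi replicate 3, dMPC1-RNAi replicate 2 or dMPC1-RNAi replicate 3 the losses were 90, 43 and 39 of 175, against 0 without dMPC1-RNAi replicate 1. Depth limits the genes near 0 in one group, whose fitted changes depend on the pseudocount.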
